A study of Bos taurus with 18 samples.

Results

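Bovine satellite cells were kept for 72 h in a serum-free differentiation medium (SFDM) or in the serum-free base medium (SFB), and their poly(A) RNA was compared gene by gene. The comparison takes in 6 of the 18 libraries of the series: the 3 SFDM and the 3 SFB replicates, with all genes that passed an expression filter. It addresses what the additions that turn the base medium into a differentiation medium do to the transcriptome, since cells of both groups came from the same serum-free growth medium (SFGM) and were sampled at the same time. The labels name the media but not the additions, so the difference is between media and belongs to no single component. Any change in the base that came with the additions is part of it.

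All cells were Belgian Blue satellite cells grown on collagen-coated flasks. SFDM was made on a DMEM/F-12 base. The other 12 libraries serve here as reference points. Their levels did not enter the SFDM and SFB means, though they helped to set the filter, scaling and spread of the fit. They are GM (0 h, growth medium with 20% fetal bovine serum, FBS), SFGM (0 h, serum-free growth medium), DM (72 h, cells from GM moved to medium with 2% FBS) and DMEM (72 h, cells from SFGM in the differentiation medium on a DMEM base), with 3 replicates each. The labels call the replicates biological but do not say whether A, B and C are animals, cultures or days, so the tests measure the spread between these cultures.

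Satellite cells are the stem cells of skeletal muscle. On the way to muscle fibres they express the myogenic regulatory factors in sequence, leave the cell cycle and fuse into multinucleated myotubes. The myotubes build the contractile apparatus of the sarcomere. In culture, exit from the cell cycle and fusion are usually started by withdrawing serum, and in serum-free culture signals have to be supplied in defined form. The files give genes by Ensembl identifier and no identifier could be matched to a symbol, so the known muscle genes cannot be pointed out here and the labelled cell type was not checked against its markers. Genes are described by their behaviour in the other cultures, and 4 identifiers are given as examples. In RNA from whole cultures, fewer differentiated cells and less RNA of a gene per cell cannot be told apart.

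The 6 libraries held 16162525 (SFDM A) to 27894431 (SFDM B) counts, and 16254 to 17129 identifiers had at least 1 count. Of 27607 identifiers, 14637 passed the filter and were tested. SFB replicate C stood apart from its group. It lay 0.465 and 0.467 root mean square log2 units from SFB A and B, which were 0.301 from each other, while SFDM replicates were 0.341 to 0.429 apart. In 777 of 10536 genes with a mean of at least 5 CPM, the count of a gene scaled to a common library total, in SFB, replicate C was at least 1.5-fold outside both other replicates, 427 above and 350 below. For the remaining 5 libraries this number was 1 to 34. Even so, every SFDM library was further from every SFB library, 0.619 to 0.744, than any replicates of a group were from each other. Numbers of calls, library positions and some shares of genes are given with and without SFB C. Most other results are given with it only.

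The media differed in about 1 gene in 3, mostly by small amounts, and the larger differences were mainly rises in SFDM. With edgeR's quasi-likelihood test and Benjamini-Hochberg adjustment at 0.05, 5062 genes were called, 34.6% of those tested. Of these, 2153 were higher in SFDM (14.7% of all genes tested) and 2909 lower (19.9%). The median log2 fold change was 0.65 among the higher genes and -0.47 among the lower ones, and 56.5% of the calls were under 1.5-fold. At 2-fold or more the balance was the opposite: 675 genes were higher in SFDM (4.61%) and 325 lower (2.22%), so that rises made up 67.5% of the larger changes against 42.5% of all calls. At 4-fold or more there were 216 rises and 54 falls, or 214 and 51 when genes with no count in a whole group are set at the smallest fold that 3 counts over the group allow.

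The surplus of falls among all calls depended on the scaling and on the libraries in the fit, and the surplus of rises among the larger changes kept its direction. Rises made up 52.0% of all calls with RLE scaling, 51.6% in DESeq2 and 38.9% with scaling by library totals alone. The reported fit shares the spread of a gene over 6 groups that were not equally variable. The median SD of a gene in log2 CPM was 0.191 in SFB, 0.139 in SFDM, 0.120 in GM and 0.0903 in SFGM, and 0.171 in DM and in DMEM. With only the 6 compared libraries in the fit, 3447 genes were called. Of these, 1823 were higher and 1624 lower, so that rises made up 52.9%. Among changes of at least 2-fold they made up 72.0%, 71.8%, 65.3% and 72.3% in the same 4 settings. None of the 5062 genes changed sign under any alternative in which it was tested. Without SFB C, 6097 genes were called, 2733 higher and 3364 lower, and 1116 of them were changed at least 2-fold. In 4741 of the 5062 called genes (93.7%) all SFDM libraries lay on one side of all SFB libraries, against 40.7% of all genes tested. The calls came from these same libraries, so this share only describes the called genes.

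**Figure D1:**
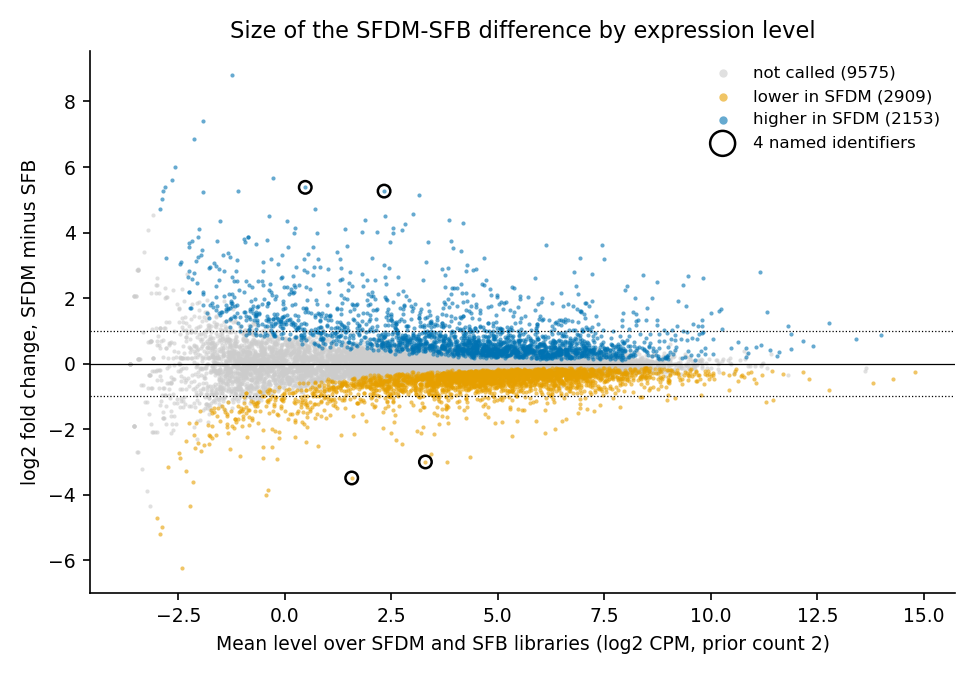
Each point is 1 of 14637 genes, with its mean level over the SFDM and SFB libraries in log2 CPM on the horizontal axis and its log2 fold change, SFDM minus SFB, on the vertical axis. Dotted lines mark 2-fold and circles the 4 named identifiers. Most of the 2909 lower genes lie within the dotted lines. Beyond the lines lie 675 of the 2153 higher genes and 325 of the lower genes.

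Small and large changes fell on different genes by expression level. Genes were divided into quartiles by their mean level over all 18 libraries. In the lowest quartile, with a median of 1.02 CPM, 23.4% of genes were called and 16% were changed at least 2-fold. In the highest quartile, with a median of 111 CPM, 42.4% were called but only 2.60% were changed at least 2-fold. The share of genes higher in SFDM hardly varied between quartiles, from 13.9% to 15.7%, while the share of lower genes was 9.45% in the lowest quartile and 26.7% in the highest. These shares are from the reported fit, and its 2909 lower calls became 2335 with RLE scaling and 1624 with only the compared groups. Whether the pattern by level depends on the scaling was not tested. Low genes need a larger difference to be called, which limits what can be seen at that end.

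Along lines from 0 h to 72 h in other media, the SFB libraries stood part of the way and the SFDM libraries further. Positions were measured along directions that used no SFDM or SFB library. These directions also carry the change of medium and the time in culture, which cannot be told apart from differentiation here. On the line from the mean of SFGM (0) to the mean of DMEM (1), over all genes tested, SFB A, B and C stood at 0.666, 0.654 and 0.618 and SFDM A, B and C at 0.841, 0.837 and 0.840. The positions of the SFDM libraries on this line were nearly identical, and SFB C was the lowest of the 6. On the line from GM (0) to DM (1) the SFB libraries stood at 0.606, 0.588 and 0.579, and the SFDM libraries at 0.785, 0.781 and 0.776. The groups did not overlap on either line. The difference was 0.193 on the first line and 0.190 on the second, or 0.180 and 0.184 without SFB C. Each gave p = 0.1 in a two-sided exact permutation test, which is the lowest value that 3 against 3 libraries allow. SFGM itself stood at 0.186 ± 0.00420 on the GM to DM line and DMEM at 0.779 ± 0.00942 (SD, n = 3), so on that line the interval from SFGM to SFB was longer than that from SFB to SFDM.

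**Figure D2:**
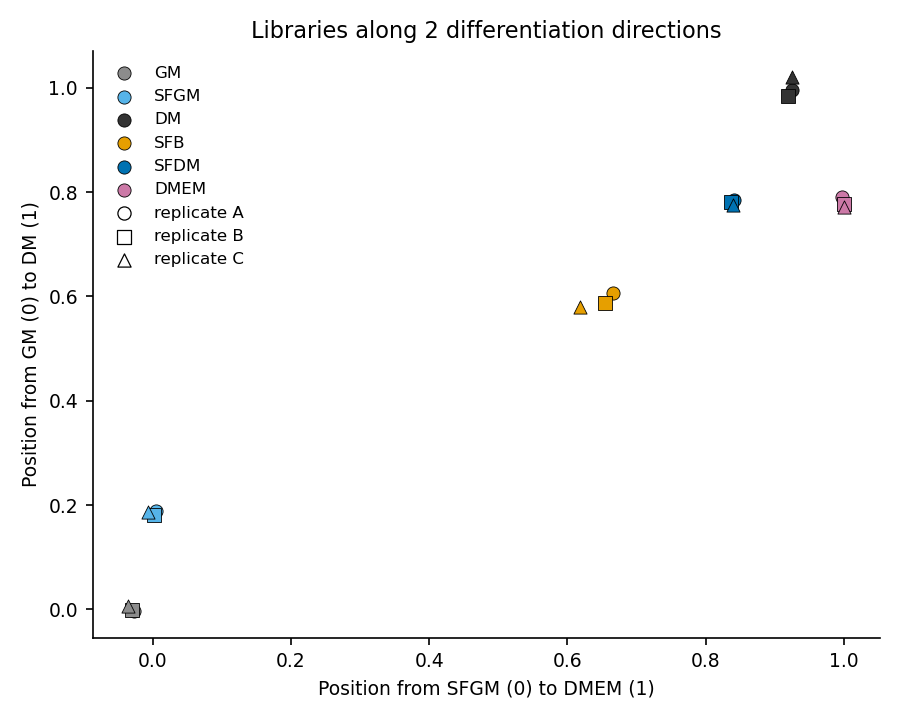
Each point is 1 library, placed by its position from SFGM to DMEM (horizontal, 0 to 1) and from GM to DM (vertical, 0 to 1), with colour for the medium and shape for the replicate. The 3 SFB libraries lie between the 0 h cultures and SFDM on both axes, and SFB C is the SFB library nearest to the 0 h cultures.

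The genes that were more abundant in SFDM were mostly genes that rose from 0 h to 72 h in other media. DM against GM and DMEM against SFGM share no library with SFDM against SFB, though all were tested in the same fit. The first called 69.7% of all genes, 34.2% up and 35.5% down, and the second 63.2%, 32.0% up and 31.2% down. Of the 675 genes at least 2-fold higher in SFDM, 551 (81.6%) rose in DM against GM and 34 (5.04%) fell, and these 551 were 11% of all genes that rose there. In DMEM against SFGM 529 of the 675 (78.4%) rose, which was 11.3% of the genes that rose there, and 39 (5.78%) fell. Their median log2 fold changes were 3.15 in DM against GM and 2.08 in DMEM against SFGM, or 3.11 and 2.05 with genes at 0 counts set at their bound. Over all genes tested the medians were -0.03 and 0.00. Without SFB C, 779 genes were at least 2-fold higher in SFDM. Of these, 75.9% rose in DM against GM and 69.3% in DMEM against SFGM.

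The genes at least 2-fold less abundant in SFDM were split between rises and falls in numbers. Of these 325 genes, 116 (35.7%) rose and 122 (37.5%) fell in DM against GM, close to the 34.2% and 35.5% of all genes. In DMEM against SFGM 114 (35.1%) rose and 132 (40.6%) fell, against 32.0% and 31.2%. They made up 2.32% of the genes that rose and 2.35% of those that fell in DM against GM. Smaller falls went more often with falls in DM against GM. Of the 1904 genes lower in SFDM by under 1.5-fold, 1080 (56.7%) fell and 456 (23.9%) rose in DM against GM. Among 680 genes lower by 1.5 to 2-fold, 54.4% fell and 27.5% rose. DMEM against SFGM showed no such step with size: the share that fell was 42.3% for falls under 1.5-fold, 47.1% at 1.5 to 2-fold, 40.2% at 2 to 4-fold and 42.6% beyond 4-fold. Median levels over all libraries were 45.4, 18.4, 3.72 and 0.940 CPM for the same steps. The part of expression level and of scaling in these shares was not tested.

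For rises the pattern ran the other way, with a larger share of risers at each step of size. In DM against GM, 60.1% of the 955 genes higher in SFDM by under 1.5-fold rose, 73.4% of the 523 at 1.5 to 2-fold, 80.0% of the 459 at 2 to 4-fold, and 85.2% of the 216 beyond 4-fold. The shares in DMEM against SFGM were 41.5%, 58.9%, 75.8% and 83.8%. Larger differences sat at lower levels, with median levels over all libraries of 43.9, 16.1, 4.97 and 2.32 CPM for the same steps. The part of expression level in this gradient was not tested.

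Seen from the other side, genes could be sorted by their behaviour in DM against GM and in DMEM against SFGM and then read in SFDM against SFB. At 2-fold or more, DM against GM called 18.1% of all genes up and 14.8% down, and DMEM against SFGM 14% up and 10.5% down. Over all genes tested, 14.7% were higher and 19.9% lower in SFDM than in SFB. Of 1439 genes that rose at least 2-fold in both, 692 (48.1%) were higher in SFDM and 157 (10.9%) lower, and 590 were not called. Their median log2 fold change was 0.49, against -0.04 over all genes tested. Of 1103 genes that fell at least 2-fold in both, 451 (40.9%) were lower in SFDM and 32 (2.90%) higher, with a median of -0.36. In refits both lists were drawn again. Without SFB C, 47.9% of the risers were higher and 38.5% of the fallers lower. Of all 14637 genes, 2733 were then higher and 3364 lower. With the replicate letter as a block and only the 6 libraries of each comparison in its fit, these shares were 34.3% and 10.4%. That fit called far fewer of the 14637 genes, 849 higher and 474 lower.

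The genes that rose in both comparisons took up more of the RNA in SFDM. The 1439 risers held 12.3%, 11.7% and 10.9% of the counts in SFB A, B and C, and 19.8%, 19.6% and 19.4% in SFDM A, B and C. The groups did not overlap, with means of 11.7% ± 0.728 and 19.6% ± 0.202 (SD, n = 3, exact two-sided permutation p = 0.1, the smallest possible). In SFGM the same genes held 3.60% ± 0.0227, in DMEM 14.4% ± 0.0624 and in DM 23.5% ± 0.696. DMEM was one of the groups that chose them, and SFDM was above it. The 1103 fallers held 4.14% to 4.36% in the SFB libraries and 3.09% to 3.12% in the SFDM libraries (exact two-sided permutation p = 0.1), down from 8.40% ± 0.0423 in SFGM.

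Genes on which the serum-based and the DMEM-based comparisons differed were also read against the 14.7% higher and 19.9% lower of all genes tested. Among 385 genes that fell in DM against GM but rose in DMEM against SFGM, 140 (36.4%) were lower in SFDM than in SFB and 56 (14.5%) higher. Among 298 genes with the reverse pattern, 78 (26.2%) were higher in SFDM and 70 (23.5%) lower. Of 1350 genes that rose in DM against GM and were not called in the other comparison, 335 (24.8%) were higher in SFDM and 127 (9.41%) lower, and of 1362 that fell in the same way, 353 (25.9%) were lower and 48 (3.52%) higher. Of 947 genes that rose in DMEM against SFGM and were not called in DM against GM, 81 (8.55%) were higher in SFDM and 210 (22.2%) lower, and of 818 that fell in the same way, 131 (16%) were higher and 108 (13.2%) lower. The balance in these last classes turned with the fold limit. Of the 304 such genes that rose at least 2-fold, 17.1% were higher and 14.1% lower in SFDM, and of the 185 that fell at least 2-fold, 10.8% were higher and 15.1% lower. The differences between classes were not tested. Genes called in neither comparison, 2673 in all, were the least often called here, with 5.65% higher and 9.73% lower. All comparisons came from the same fit, so a low or variable gene can go uncalled in each. The part of level and spread in this was not tested.

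**Figure D3:**
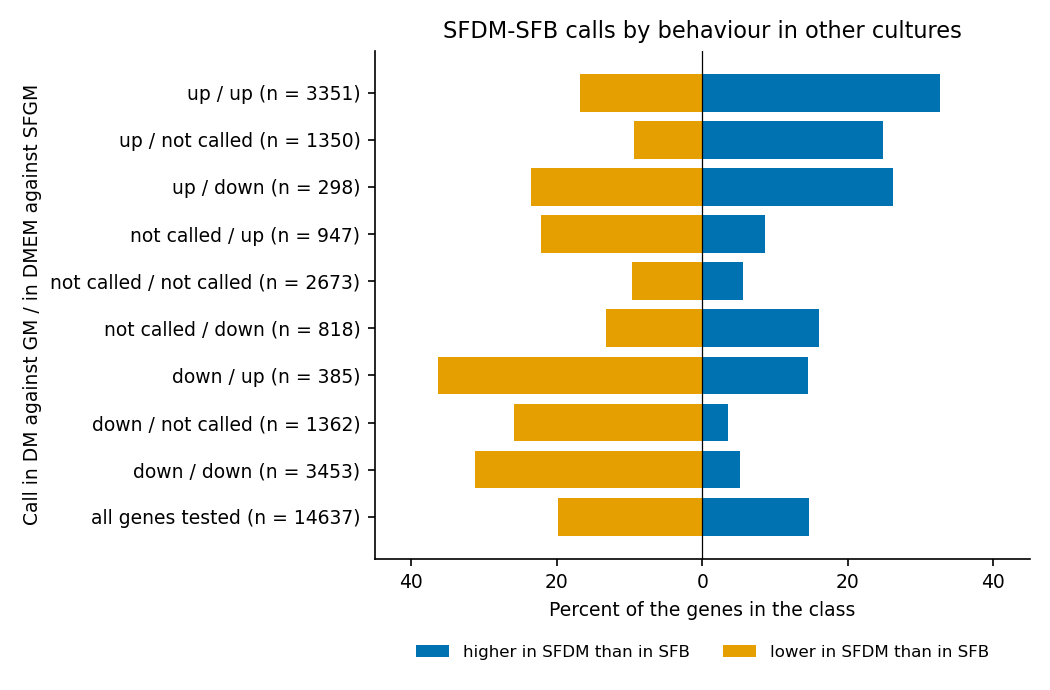
Bars give the percent of genes called higher (right) or lower (left) in SFDM than in SFB, for 9 classes of genes named by their call in DM against GM and then in DMEM against SFGM, and for all genes tested. Bars to the right are longer than those to the left in the classes that rose in DM against GM, and shorter in those that fell there.

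The levels of the changed genes were also read in every medium. The genes were chosen on the SFDM and SFB libraries, so those values are descriptive, as is the place of other media between them. The other 12 libraries entered the choice only through the filter, scaling and shared spread of the fit. For the 675 genes at least 2-fold higher in SFDM, the median level was 7.29, 6.69 and 6.5 CPM in SFDM A, B and C and 1.87, 1.67 and 1.81 CPM in SFB A, B and C. In SFGM it was 0.927 to 0.971 CPM and in GM 0.652 to 0.742 CPM, so the SFB libraries stood above every 0 h library. DMEM, with 3.46 to 4.27 CPM, was between SFB and SFDM, and DM reached 5.31 to 6.93 CPM, a range that overlaps that of SFDM. Together these genes held 7.73% of the counts in SFDM and 2.60% in SFB. In the other 12 libraries, they held 3.62% ± 0.174 in DMEM against 0.787% ± 0.0112 in SFGM, and 8.92% ± 0.769 in DM against 0.585% ± 0.0283 in GM (SD, n = 3, exact two-sided permutation p = 0.1 for each, the smallest possible). A mean of at least 10 CPM was reached by 294 of the 675 in SFDM, 286 in DM, 233 in DMEM, 179 in SFB and 106 in SFGM.

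For the 325 genes at least 2-fold lower in SFDM, the median over the set was similar in SFB and SFGM, while single members differed between these groups, as the identifiers described last show. The median level was 3.18, 2.92 and 3.29 CPM in the SFB libraries, 2.88 to 2.95 CPM in SFGM, and 1.23, 1.26 and 1.16 CPM in the SFDM libraries. The SFB and SFGM ranges overlap. DMEM (2.24 to 2.50 CPM), DM (2.10 to 2.36 CPM) and GM (1.98 to 2.08 CPM) lay between SFDM and SFB. The genes were chosen for low values in SFDM relative to SFB, so the low place of SFDM and the high place of SFB are descriptions only. These genes held 1.64% to 1.81% of the counts in the SFB libraries, above the 1.55% to 1.60% of the SFGM libraries, and 0.735% on average in SFDM. In the other libraries, they held a smaller share of the counts at 72 h than at 0 h. Their median level was lower in DMEM than in SFGM but higher in DM than in GM. The shares were 1.15% ± 0.0806 in DMEM against 1.57% ± 0.0256 in SFGM, and 0.937% ± 0.0534 in DM against 1.21% ± 0.0430 in GM (SD, n = 3, exact two-sided permutation p = 0.1 for each).

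**Figure D4:**
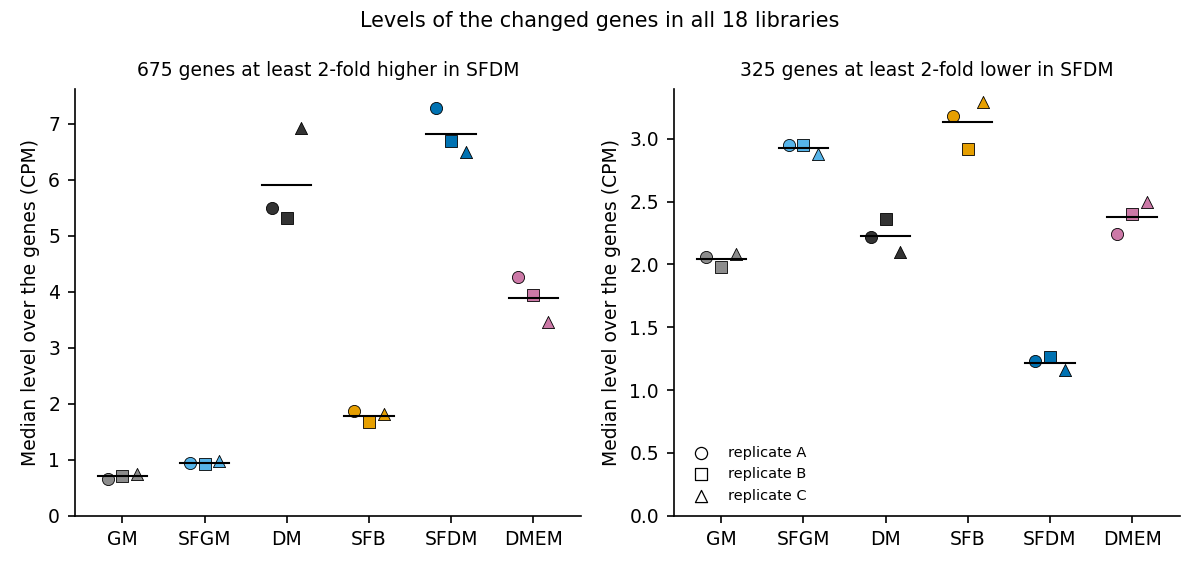
Each point is the median level, in CPM, of the 675 genes at least 2-fold higher (left) or the 325 genes at least 2-fold lower (right) in SFDM than in SFB in 1 library, with shape for the replicate and a line at the group mean of 3 libraries. The genes on the left were chosen to be high in SFDM relative to SFB, and those on the right the reverse. On the left DM overlaps SFDM and DMEM lies between SFB and SFDM. On the right SFB overlaps SFGM, and SFDM is the lowest group.

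Of the identifiers that passed the test, did not overlap between the groups and averaged 5 CPM or more in whichever group was higher (1618 higher, 2394 lower), the pair with the largest rises were near silent in SFB. ENSBTAG00000016801 had 5, 6 and 2 counts in SFB A, B and C (0.218, 0.250 and 0.0803 CPM) and 121, 216 and 153 counts in SFDM A, B and C (7.80, 8.03 and 7.37 CPM). It was 41.6-fold higher in SFDM (log2 fold change 5.38, SE 0.23, edgeR adjusted p = 1.64e-09). All SFDM libraries were far above all SFB libraries. It had no count in any GM or SFGM library, stood at 14 ± 0.686 CPM in DM, at least 398-fold higher than in GM, and at 2.21 ± 0.254 CPM in DMEM, at least 60.9-fold higher than in SFGM (SD, n = 3, against 3 counts over the group).

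ENSBTAG00000008763 stood at 1, 0.875 and 0.482 CPM in SFB A, B and C and at 28.3, 31.8 and 30.4 CPM in SFDM A, B and C. SFB C was the lowest library for both of these identifiers. The difference was 38.5-fold (log2 fold change 5.26, SE 0.20, edgeR adjusted p = 4.81e-11). It had no count in GM and 4 counts in all in SFGM. DM, at 24.9 to 28.4 CPM, overlapped SFDM, and DMEM, at 23 to 27.2 CPM, lay just below it.

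The pair with the largest falls were highest in SFB. ENSBTAG00000023177 stood at 27.1, 28.3 and 28.3 CPM in SFB A, B and C and at 2.58, 3.53 and 4.19 CPM in SFDM A, B and C. The fold was 8.02 (log2 fold change -3.00, SE 0.21, edgeR adjusted p = 1.25e-08). In the other 4 groups no library was above 6.58 CPM, and the groups SFGM (3.67 ± 0.625 CPM), DM (4.23 ± 0.796) and DMEM (4.83 ± 1.60) had ranges that overlap that of SFDM (SD, n = 3). DMEM against SFGM did not pass the test for this identifier (edgeR adjusted p = 0.127).

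ENSBTAG00000010244 stood at 8.70, 8.42 and 11.8 CPM in SFB A, B and C, with replicate C the highest, and at 0.968, 0.966 and 0.626 CPM in SFDM A, B and C. It was 11.2-fold lower in SFDM (log2 fold change -3.49, SE 0.23, edgeR adjusted p = 4.70e-09). It was also low in SFGM, with 1, 4 and 3 counts, and in DMEM (0.725 ± 0.258 CPM), and intermediate in DM (3.11 ± 0.447 CPM, SD, n = 3). Set against SFGM, the identifier was 95.1-fold higher in SFB (edgeR adjusted p = 1.48e-11) and 8.45-fold higher in SFDM (edgeR adjusted p = 9.00e-06), which share the SFGM libraries. Both falling identifiers were highest in SFB of all 6 groups.

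**Figure D5:**
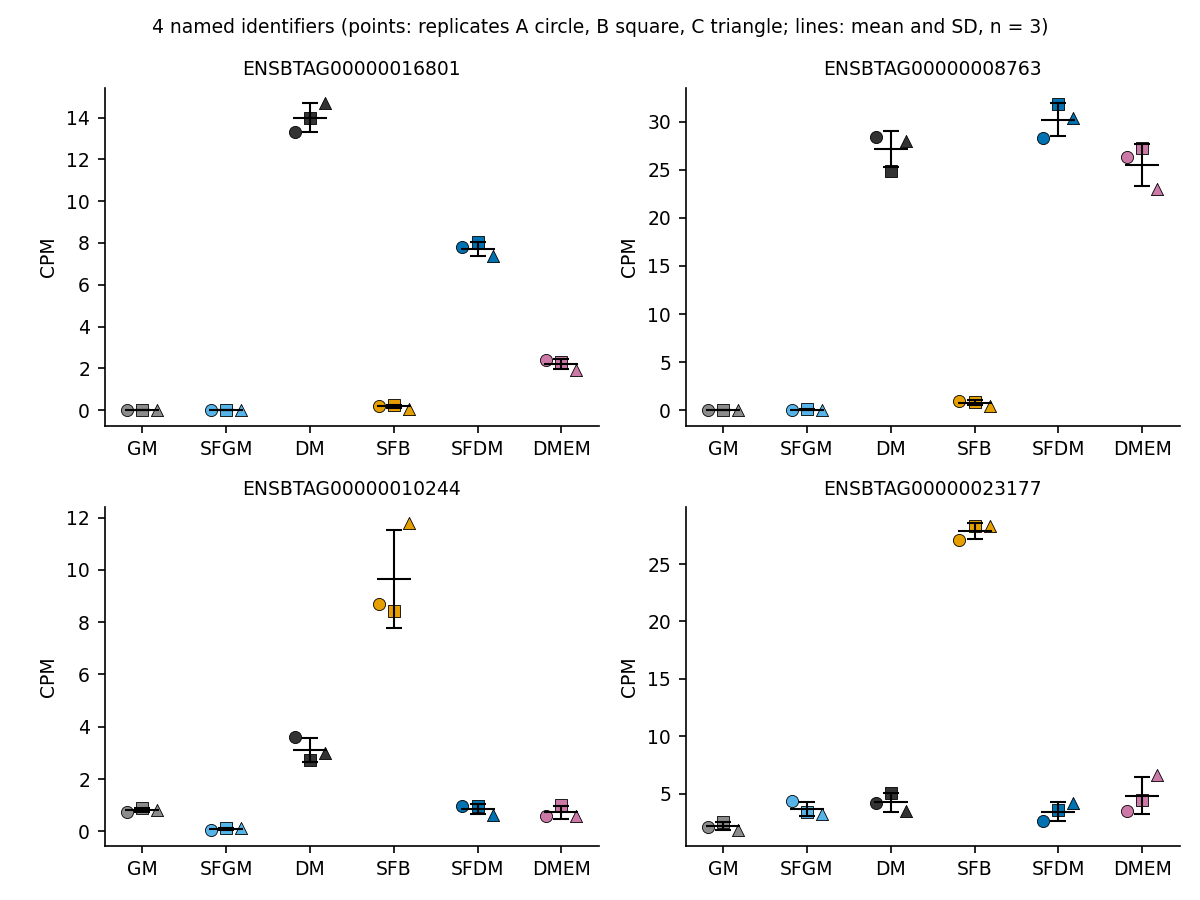
Levels in CPM of the 4 named identifiers in all 18 libraries, with points for replicates and lines for the mean and SD of 3. The pair on top is near 0 in GM, SFGM and SFB and high in SFDM and DM, and the pair below is highest in SFB.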

How the data were processed

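The authors deposited raw counts, whole numbers of reads per Ensembl bovine gene identifier, for 18 libraries. They were made with a stranded mRNA kit per the labels' protocols, and with STAR 2.7, featureCounts and bosTau9 per the submitters' processing notes. The sources used here do not give alignment parameters, annotation release or strand setting. Reads of overlapping, antisense or near-identical genes can therefore be shared or lost.

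Genes were kept by filterByExpr (minimum count 10, minimum total 15), scaled by TMM, and tested in R 4.3.3 with edgeR 4.0.16 (robust quasi-likelihood fit of 1 mean per group to all 18 libraries, 12 residual degrees of freedom, two-sided, Benjamini-Hochberg at 0.05). CPM use TMM-scaled totals, and log2 CPM a prior count of 2. Standard errors are the log2 fold change over the square root of F. The procedure was tested on simulated data. A position is the projection of log2 CPM on the difference of 2 group means. Shares of counts were compared by exact permutation. A floor is 3 counts over a group and covers counting error only.

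Replicate pairs differed beyond sampling noise (chi-square per degree of freedom 2.76 to 44.0), so all were kept apart. The members, groups and fold limits were chosen with earlier results of these data known. Named identifiers are the 2 largest rises and 2 largest falls by the rule in the text. Symbol lists, cell type markers and a gene panel had been fixed, but 0 identifiers matched a symbol, and they were not used here. Alternatives were RLE scaling, totals alone, no filter, a filter of 5 CPM in 3 libraries, DESeq2 1.42.0, only the compared groups, a replicate block, no robust fit, and leaving out each library. Same-letter correlations of DM with GM were 0.131, 0.184 and 0.426, each above 0.1, but DM B with GM A gave 0.291. The letters therefore did not clearly pair DM with GM, and they did not pair SFDM with SFB.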

Additional observations from a re-analysis of the deposited data

How the results depend on the processing

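With only the compared groups in the fit, 1624 genes were lower and 1823 higher in SFDM, and 3447 were called in all against 5062. The stricter expression filter left 581 genes changed at least 2-fold, because fewer low genes were tested. Every other alternative without a block kept the counts of calls within 1.5 times. Letters did not pair SFDM with SFB (same-letter correlations of -0.193, -0.0947 and -0.450). With the replicate block in a fit of the compared groups alone, 1323 genes were called, 849 higher and 474 lower, of which 1322 were also called, in the same direction, in the reported fit; with the block over all libraries the count was 4841. For DM against GM and DMEM against SFGM no alternative moved the count by 1.5 times, the block included. Leaving out 1 library gave 3912 to 6097 calls, 1652 to 2733 higher, 2241 to 3364 lower and 919 to 1116 at least 2-fold, with the most calls without SFB C. The 4 named identifiers kept direction and call in all 60 values under alternatives, with a largest adjusted p of 0.00141 in edgeR or DESeq2. The share of counts in genes fallen in both differentiations differed by -1.15 percentage points, and by -3.55 with the group defined by adjusted p alone, a longer list; for risen genes it was 7.95 and 8.12. Positions differed by 0.192 to 0.205 (SFGM to DMEM) and 0.190 to 0.199 (GM to DM) over scalings and filter. The symbol lists planned for alternatives were not run.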

Other observations

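Genes that fell at least 2-fold in DM against GM and were not called in DMEM against SFGM, 328 in all, together took a larger share of the counts in SFB than in any other group. They held 3.07%, 3.17% and 3.60% of the counts in SFB A, B and C, and 2.35%, 2.42% and 2.36% in SFDM A, B and C (exact two-sided permutation p = 0.1, the smallest possible). In SFGM they held 2.41% ± 0.0464, in GM 2.62% ± 0.0185, in DMEM 2.43% ± 0.0960 and in DM 1.06% ± 0.00768 (SD, n = 3). Of the 328 genes, 252 were not called between SFDM and SFB, 62 (18.9%) were lower in SFDM and 14 (4.27%) higher, against 19.9% and 14.7% of all genes tested, and their median log2 fold change was -0.17.

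Measures of how evenly the RNA was spread over genes overlapped between the groups. The number of genes that held 50% of the counts was 582, 579 and 529 in SFB A, B and C and 500, 515 and 531 in SFDM A, B and C (exact two-sided permutation p = 0.2). In SFGM it was 702 to 717. The 10 most abundant genes held 13.1%, 13.2% and 14.7% of the counts in SFB A, B and C, and 13.7%, 13.3% and 12.9% in SFDM A, B and C (exact two-sided permutation p = 0.7).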
